A study of Gallus gallus with 2 samples.

Results

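Axon guidance ligands and receptors were described in chick retinal cells that had been electroporated at embryonic day 5, cultured for 48 h and sorted for a GFP reporter driven by an OTX2 regulatory element (OTX2ECR2). The 63 genes were picked by symbol, out of 23967 genes in the count matrices, as all semaphorins, plexins, neuropilins, Eph receptors, ephrins, Slits, Robo receptors, netrins, netrin-Gs and UNC5 receptors together with NEO1 and DRAXIN. No measured value picked the members, but the gene family itself was taken up with earlier results of these data known. DCC, which the rule also names, was not analysed here.

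The OTX2CRISPR library came from retinas that received a plasmid with Cas9, driven by the CAG promoter, and a guide RNA (g2) against OTX2, a homeobox gene needed for photoreceptor formation. The CTRL library came from the contralateral eyes of the same embryos and received the same Cas9 plasmid with the guide scaffold but no targeting sequence. Both therefore carried Cas9 and the reporter, all embryos were female, and the retinas of a group were pooled, so that each group was 1 library of single cells. Differences between these 2 libraries had no replicate check, and no test was possible. Intervals are 95% intervals that cover counting error only, and ratios are log2 of the first level over the second.

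Guidance cues attract or repel growth cones. Semaphorins signal through plexins, with neuropilins as binding partners for the secreted members. Ephrins are held on the cell surface and bind Eph receptor kinases, Slits bind Robo receptors and mostly repel, and netrins act through DCC, neogenin and the UNC5 receptors. In the vertebrate eye, retinal ganglion cell (RGC) axons read these cues on the way to the optic disc and the tectum, and several of the same families take part in cell migration and lamination.

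After filtering, the OTX2CRISPR library held 4928 cells with a median of 2566 unique molecular identifiers (UMIs, each counting 1 captured RNA molecule), and the CTRL library held 5073 cells with a median of 2779 UMIs. The libraries shared 38 cell barcodes. OTX2 stood at 761 CPM (the UMIs of a gene scaled to a fixed total of UMIs per library or class) in the OTX2CRISPR library and 1745 CPM in the CTRL library. RNA after frameshift mutation can persist, so this level is no measure of the protein. Erythroid and microglial markers were below 1 CPM in both libraries. Retinal pigment epithelium markers were at 12.2 and 12.5 CPM in OTX2CRISPR and CTRL cells, and endothelial markers at 17.3 and 16.3 CPM. Lens genes, which include the crystallin ASL1, were at 239.7 and 129 CPM in the same order. The part of these cells in the results was not tested.

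Cells were grouped into 10 classes by markers that included no guidance gene, and the guidance genes were also kept out of the clustering. Classes carry the ending -like because they were rebuilt from marker lists. In cells (OTX2CRISPR, then CTRL) they were New-like, 1810 and 30; RGC-like, 541 and 149; horizontal cell type 1 (HC1-like), 506 and 89; type 2 (HC2-like), 223 and 443; cells with amacrine and horizontal cell genes (AC/HC/RGC-like), 240 and 133; cone PR1-like, 36 and 886; cone PR2-like, 40 and 677; cone homotypical PC-like, 30 and 831; restricted progenitors (RPC-like), 1188 and 1502; and multipotent RPC-like, 314 and 333. New-like cells were named from BRINP2, CRABP1, SPIK2, SULF2, ERBB4 and ONECUT3, a list that the study drew from these same cells. Of the 1840 cells in their cluster, 58.9% scored highest for this list. The shares of cones and New-like cells differed so widely that a level over a whole library moved with its makeup, and at that scale more cells of a type cannot be told apart from more RNA per cell.

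Guidance genes made up a larger part of the RNA in the OTX2CRISPR library. All members together reached 3480 CPM in OTX2CRISPR cells and 2076 CPM in CTRL cells. The Slit total was 895 CPM against 172 CPM, the plexin total 865 CPM against 513 CPM and the neogenin level 328 CPM against 129 CPM, while the Robo total was 294 CPM in OTX2CRISPR cells and 354 CPM in CTRL cells. Of the 39 members with at least 100 UMIs over both libraries, 14 were at least 2-fold higher in the OTX2CRISPR library and 4 at least 2-fold lower. Of all 10191 genes that passed the same minimum, 10.1% were at least 2-fold apart. The median log2 ratio was 0.31 over these members and 0.04 over all genes.

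**Figure D1:**
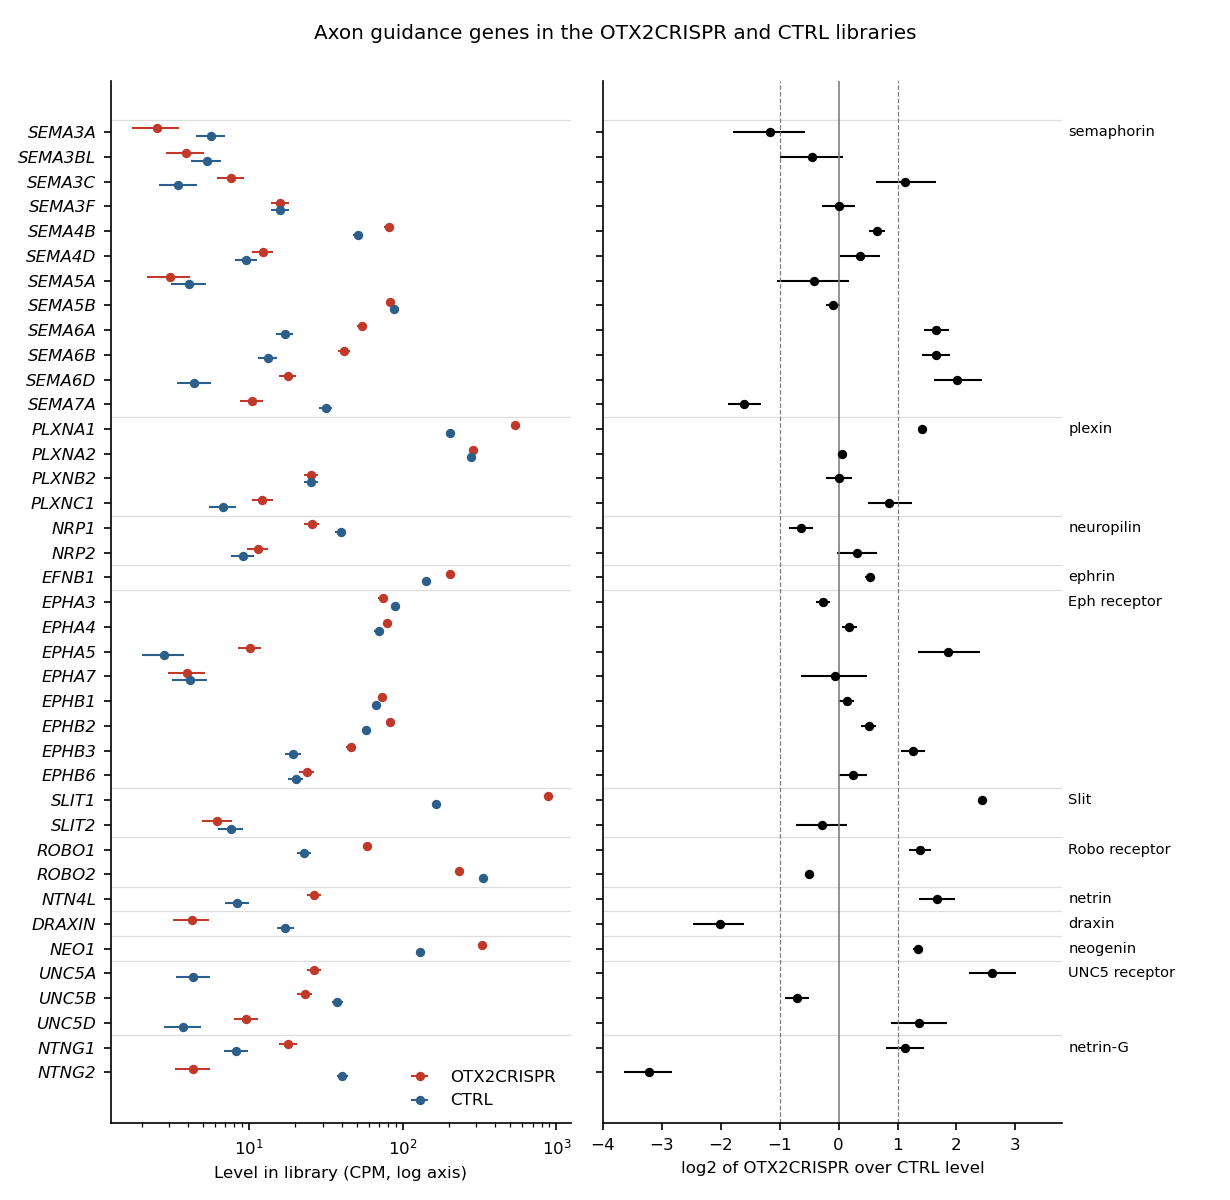
Levels of the 39 guidance genes with at least 100 UMIs. The left panel gives CPM on a log axis in the OTX2CRISPR (red) and CTRL (blue) libraries, and the right panel log2 of the OTX2CRISPR over the CTRL level; bars are 95% counting intervals and dashed lines mark 2-fold. SLIT1 and UNC5A lie furthest to the right, and NTNG2 and DRAXIN furthest to the left.

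Among semaphorins, 3 of the 4 transmembrane SEMA6 genes were at least 2-fold higher in OTX2CRISPR cells. The other, SEMA6C, was under the minimum, with 3 UMIs in OTX2CRISPR and 19 in CTRL cells (-2.50, -4.90 to -0.74). SEMA6A, a plexin-A ligand, had 711 UMIs in the OTX2CRISPR library and 252 in the CTRL library, at 53.8 and 17.1 CPM (log2 ratio 1.66, 1.45 to 1.87). SEMA6B was at 41.4 CPM in OTX2CRISPR cells and 13.2 CPM in CTRL cells (1.65, 1.41 to 1.89), and SEMA6D at 17.8 and 4.40 CPM (2.02, 1.61 to 2.44). The secreted SEMA3C was also higher in the OTX2CRISPR library, at 7.57 against 3.45 CPM. Secreted SEMA3A and membrane-anchored SEMA7A went the other way. SEMA7A had 10.4 CPM in OTX2CRISPR cells and 31.4 CPM in CTRL cells (-1.60, -1.88 to -1.32), and SEMA3A 2.50 and 5.62 CPM (-1.17, -1.80 to -0.57). The remaining semaphorins were under the UMI minimum or less than 2-fold apart.

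Of the receptors for semaphorins, PLXNA1 led in the OTX2CRISPR library, at 538 CPM in OTX2CRISPR cells and 202 CPM in CTRL cells (1.41, 1.35 to 1.48). PLXNA2, which led in the CTRL library, stood at 287 and 277 CPM and PLXNB2 at 25.4 and 25.3 CPM, so that these plexins were nearly level. NRP1, a semaphorin and VEGF receptor, was at 25.4 CPM in OTX2CRISPR cells and 39.5 CPM in CTRL cells (-0.64), and NRP2 at 11.4 and 9.14 CPM (0.31, with an interval of -0.03 to 0.66 that includes 0). PLXNA4 had 3 UMIs in the OTX2CRISPR library and 1 in the CTRL library.

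The main ephrin was EFNB1, at 204 CPM in OTX2CRISPR cells and 141 CPM in CTRL cells (0.53, 0.45 to 0.61). EFNA2 had 10 UMIs in OTX2CRISPR and 6 in CTRL cells, EFNA5 13 and 53 UMIs, and EFNB2 had none in either library, which allows up to 0.227 CPM in OTX2CRISPR and 0.203 CPM in CTRL cells. Of their receptors, EPHA5 was at 10.1 CPM in OTX2CRISPR cells and 2.78 CPM in CTRL cells (1.86, 1.34 to 2.40), and EPHB3 at 46.0 and 19.2 CPM (1.26, 1.05 to 1.47). The more abundant Eph receptors differed by less than 2-fold: EPHA3 was at 73.7 CPM in OTX2CRISPR and 88.9 CPM in CTRL cells (-0.27), EPHA4 at 78.6 and 69.4 CPM (0.18), EPHB1 at 73.1 and 66.6 CPM (0.14) and EPHB2 at 82.5 and 57.9 CPM (0.51).

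SLIT1 carried the most UMIs of any guidance gene in the OTX2CRISPR library, 11715 against 2416 in the CTRL library. Its level was 887 CPM in OTX2CRISPR cells and 164 CPM in CTRL cells, a log2 ratio of 2.44 (2.38 to 2.50). The receptors divided. ROBO1 was at 58.8 CPM in OTX2CRISPR cells and 22.7 CPM in CTRL cells (1.37, 1.19 to 1.56), whereas ROBO2 was at 232 and 331 CPM (-0.51, -0.58 to -0.44). ROBO3, under the minimum, had 45 UMIs in OTX2CRISPR cells and 6 in CTRL cells, SLIT2 was at 6.21 and 7.58 CPM, and ROBO4 was not detected.

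Of the netrins only NTN4L passed the minimum, at 26.5 CPM in OTX2CRISPR cells and 8.33 CPM in CTRL cells (1.67, 1.37 to 1.98). NTN1 had 2 UMIs in OTX2CRISPR and none in CTRL cells. The receptor NEO1 (neogenin) was at 328 and 129 CPM (1.34, 1.26 to 1.42). UNC5A, a repulsive netrin receptor, had the highest ratio among members that passed the minimum, with 348 UMIs in the OTX2CRISPR library and 64 in the CTRL library (26.4 and 4.33 CPM, 2.60, 2.22 to 3.01). UNC5D was higher as well, at 9.54 against 3.72 CPM, and UNC5B was at 23.0 and 37.5 CPM, while UNC5C had 11 UMIs in each library. DRAXIN, which encodes a secreted repellent that binds netrin receptors, was at 4.24 CPM in OTX2CRISPR cells and 17.2 CPM in CTRL cells (-2.02, -2.46 to -1.60). The netrin-Gs, synaptic adhesion proteins related to netrins, split: NTNG1 was at 17.9 CPM in OTX2CRISPR and 8.26 CPM in CTRL cells (1.12), and NTNG2 at 4.32 and 40.3 CPM (-3.22, -3.64 to -2.83), the lowest ratio of the same members.

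Where these RNAs came from differed by class. In the OTX2CRISPR library, New-like cells gave 40.6% of SLIT1 UMIs and RGC-like cells 31.3%, beside 34.9% and 13.5% of all UMIs. In the CTRL library, HC2-like cells gave 53.0% of SLIT1 UMIs from 8.45% of all UMIs. NTNG2 in CTRL cells came mostly from cone PR2-like (51.8%) and cone PR1-like cells (28.1%), and DRAXIN from cone homotypical PC-like cells (59.8%). In a comparison chosen after seeing the data that left out the 3 cone-like classes and the New-like class, 9 of 33 members were at least 2-fold apart, 8 higher and 1 lower in OTX2CRISPR cells, beside 4.99% of all genes. The lower one was NRP1, at 28.3 CPM in OTX2CRISPR and 67.8 CPM in CTRL cells (-1.26, -1.48 to -1.04). SLIT1 then stood at 830.1 CPM in OTX2CRISPR and 267 CPM in CTRL cells (1.64), UNC5A at 16.5 and 3.68 CPM (2.16), and SEMA6D at 15.3 and 3.68 CPM (2.06). SEMA6A (0.96), ROBO1 (0.84), NEO1 (0.88), PLXNA1 (0.99) and EPHB3 (0.69) kept their direction but were less than 2-fold apart there. Without those classes NTNG2 (-0.16) and SEMA7A (-0.11) were less than 2-fold apart, and DRAXIN (0.33, -0.49 to 1.17) and SEMA3A (0.93, -0.32 to 2.28) changed sign with intervals that include 0. The classes left in still differed in makeup, with 541 OTX2CRISPR and 149 CTRL RGC-like cells, and 223 and 443 HC2-like cells. Within RGC-like cells UNC5D and NTN4L (1.29 and 1.23 here) were at -0.46 and -0.45. SEMA6D (1.35), SLIT1 (1.13) and NTNG1 (0.98) kept their direction in RGC-like cells, with intervals above 0. UNC5A (0.40, -0.22 to 1.06) and SEMA6B (0.38, -0.18 to 0.98) had intervals there that include 0, and EPHA5 was under the minimum. NRP1 was at -0.81 within HC2-like cells. The part of makeup in these ratios was not tested.

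Genes that act downstream of these receptors were counted in the same way, beside the 10.1% of all genes at least 2-fold apart (6.21% higher and 3.93% lower). Of 28 guidance effectors, 24 passed the minimum and 3 were at least 2-fold higher in the OTX2CRISPR library: VAV3 (1.46), SRGAP1 (1.04), which binds Robo receptors, and PAK1 (1.02), a kinase activated by RAC1 and CDC42. None was 2-fold lower, with DOCK1 (-0.49) and RHOA (-0.11) at the low end, and the median was 0.32. Of 14 growth cone and adhesion genes, 12 passed, 5 were higher and 1 was lower, with a median of 0.50. GAP43, a growth cone protein, was at 168 CPM in OTX2CRISPR and 38.8 CPM in CTRL cells (2.11), STMN2, a neuronal microtubule regulator, at 841 and 207 CPM (2.02), and the adhesion molecule CHL1 (-1.05) and the hedgehog co-receptor BOC (-0.96) were lowest.

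The class with the highest level was found for each guidance gene. Over the 7 classes with at least 50 OTX2CRISPR cells, 36 members had 50 or more UMIs; 12 were highest in RGC-like cells, 8 in HC1-like, 7 in HC2-like, 5 in multipotent RPC-like, 3 in AC/HC/RGC-like and 1 in restricted RPC-like cells, and none was highest in New-like cells. The RGC-like and horizontal cell classes thus held 27 of the 36, and 51.3% of all genes with 50 UMIs were highest in the same classes. No share over all genes was counted for a single class. The counts by class, with none for New-like cells, therefore cannot be read against a background. For 10 of the 36, the highest class exceeded the next by 2-fold or more, beside 8.9% of all genes. Over 9 such classes of the CTRL library, 40 members had 50 UMIs, with 11 highest in RGC-like and 9 in cone PR2-like cells. These counts for single classes also had no share over all genes beside them. There 21 of the 40 were highest in RGC-like or horizontal cell classes, beside 44.4% of all genes, and 11 exceeded the next class by 2-fold, beside 10.4% of all genes. Of 25 members whose highest class was one that both libraries held in number, 23 had the same highest class in both. The same share over all genes was not counted, so whether this count is particular to guidance genes is not known. The classes were also built from both libraries together. These levels describe clusters of the same cells and were not tested.

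**Figure D2:**
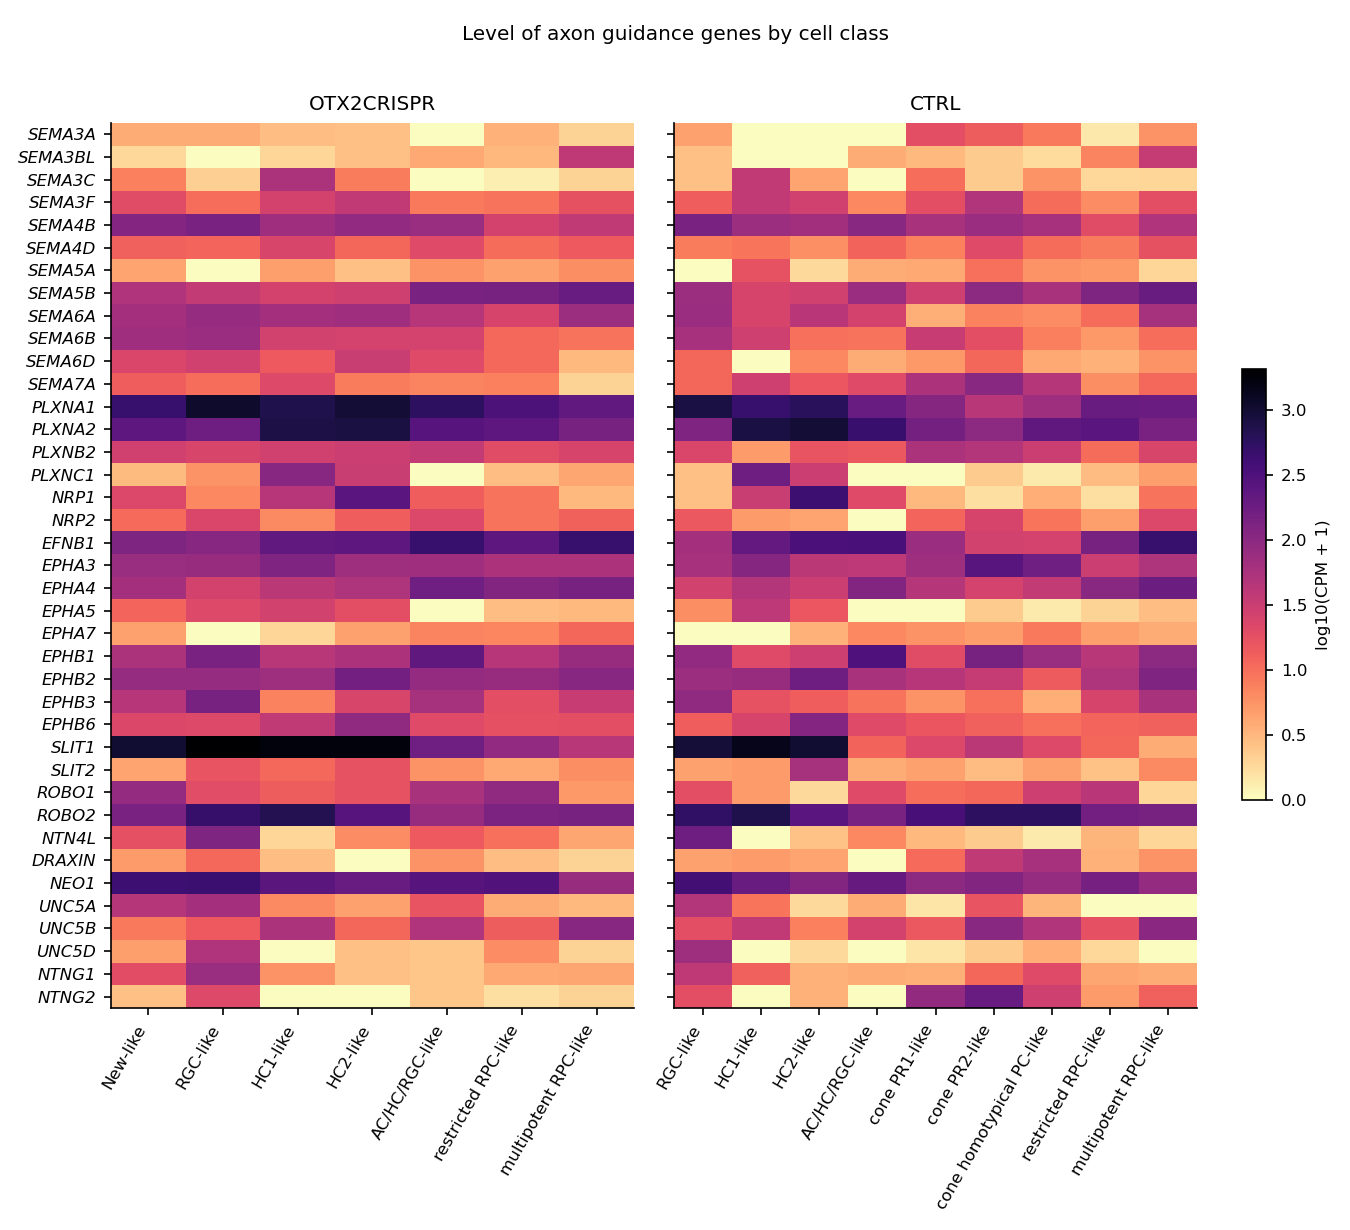
Level of each of the 39 guidance genes, as log10(CPM + 1) by colour, in the classes with at least 50 cells of the OTX2CRISPR (left) and CTRL (right) libraries. SLIT1 is darkest in RGC-like, HC1-like and HC2-like cells of both libraries and in New-like cells of the OTX2CRISPR library; NTNG2 and EPHA3 are darkest in cone PR2-like cells of the CTRL library.

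RGC-like cells, the projection neurons of the retina, were rich in SLIT1, PLXNA1, ROBO2 and NEO1. SLIT1 was at 2057 CPM in OTX2CRISPR and 942 CPM in CTRL RGC-like cells, PLXNA1 at 1081 and 815 CPM, and ROBO2 at 483 and 523 CPM. Other members were more confined to this class. NTN4L was at 126 CPM (110.2 to 144) in OTX2CRISPR and 172 CPM (139.9 to 209) in CTRL RGC-like cells, and the next class had 16.9 CPM (New-like, OTX2CRISPR) and 5.56 CPM (AC/HC/RGC-like, CTRL). UNC5D was at 49.9 and 68.8 CPM, against 5.19 CPM in OTX2CRISPR restricted RPC-like cells and 2.63 CPM in CTRL cone homotypical PC-like cells as the next classes. EPHB3, a receptor for B ephrins, was at 143 and 91.1 CPM, and NTNG1 at 74.5 and 37.8 CPM. These genes exceeded the next class by 2-fold in OTX2CRISPR cells only. In CTRL cells EPHB3 was at 55.4 CPM in multipotent RPC-like cells (0.72, 0.16 to 1.27). NTNG1 was at 19.5 CPM in CTRL cone homotypical PC-like cells (0.95, 0.16 to 1.70). In cells thinned to 1000 UMIs, NTN4L was found in 13.0% of OTX2CRISPR and 12.1% of CTRL RGC-like cells (29.6% and 45.0% before thinning, with median depths of 3242 and 3844 UMIs). HC1-like cells, with 2067.5 and 2669 UMIs, had NTN4L in 0.201% and 0% of thinned cells.

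The horizontal cell types, interneurons of the outer retina, shared SLIT1, PLXNA2 and PLXNA1 and differed in the rest. PLXNC1, a receptor for SEMA7A, was at 104 CPM (85.9 to 125) in OTX2CRISPR and 168 CPM (122 to 227) in CTRL HC1-like cells, against 31.5 and 30.5 CPM in HC2-like cells. EPHA6 had 54 of its 61 OTX2CRISPR UMIs in HC1-like cells, at 48.9 CPM, and 7 UMIs at 27.4 CPM in the CTRL class. ROBO2 was highest in this class, at 663 CPM in OTX2CRISPR and 740.4 CPM in CTRL cells. SEMA3C was at 54.3 CPM in OTX2CRISPR and 35.3 CPM in CTRL HC1-like cells, and no other class of at least 50 cells exceeded 9.12 CPM. Of HC1-like cells, 40.5% in the OTX2CRISPR and 47.2% in the CTRL library were in S or G2/M phase.

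HC2-like cells were marked by NRP1, EPHB6 and, in the CTRL library, SLIT2. NRP1 was at 248 CPM (209 to 293) in OTX2CRISPR and 435 CPM (399 to 473) in CTRL HC2-like cells. Its next level was 43.4 and 31.3 CPM, both in HC1-like cells, and it was at 5.6 and 1.72 CPM in RGC-like cells. NRP1, SLIT1 and PLXNA2 are on the list of genes that the study drew from these cells for its HC2 cluster, so that their presence here is no independent finding. EPHB6, a kinase-inactive Eph receptor, was at 89.2 and 111 CPM, and EPHB2 was also highest here, at 156 and 171 CPM. SLIT2 was at 15.7 CPM in OTX2CRISPR and 60.1 CPM in CTRL HC2-like cells.

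Cones were described in the CTRL library, which held nearly all of them. ROBO2 led all 3 cone-like classes, at 557 CPM in cone PR2-like, 557 CPM in cone homotypical PC-like and 364 CPM (338 to 391) in cone PR1-like cells, and the PR1-like level was below the others beyond counting error. EPHA3, a receptor for A ephrins, was at 256 CPM in cone PR2-like, 165 CPM in cone homotypical PC-like and 67.9 CPM in cone PR1-like cells, and the 3 intervals did not overlap. NTNG2, which the study lists for its PR2 cluster, was at 191 CPM, 27.8 CPM and 84.6 CPM in the same order. SEMA7A was at 103, 45.1 and 52.2 CPM, and UNC5B at 103, 47.7 and 13.7 CPM. DRAXIN was highest in the dividing cone homotypical PC-like cells, at 57.1 CPM (48.4 to 67.0), then at 36.5 CPM (27.8 to 47.1) in the PR2-like class and 9.63 CPM in the PR1-like class. SEMA3A had its highest level in cone PR1-like cells, 17.2 CPM, which overlapped with the 12.4 CPM of cone PR2-like cells within counting error.

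Progenitors had another set. EFNB1 was the leading guidance gene of multipotent RPC-like cells, at 475 CPM (433 to 521) in OTX2CRISPR and 471 CPM (431 to 513) in CTRL cells, and was at 466 and 342 CPM in AC/HC/RGC-like cells. EPHA4, which binds ephrins of both classes, was at 144 and 176 CPM in multipotent RPC-like cells and 163 and 120 CPM in AC/HC/RGC-like cells. RGC-like cells had 25.2 and 25.8 CPM. SEMA5B, a transmembrane semaphorin, was at 191 and 188 CPM in multipotent and 141 and 126 CPM in restricted RPC-like cells. UNC5B was at 106 and 99.8 CPM and SEMA3BL at 37.0 and 33.6 CPM in multipotent RPC-like cells, and no other class of at least 50 cells exceeded 6.15 CPM for SEMA3BL. UNC5B was not confined to progenitors, with 103 CPM in CTRL cone PR2-like cells. EPHB1 was highest outside the progenitor classes, in AC/HC/RGC-like cells, at 225 CPM in OTX2CRISPR and 311 CPM in CTRL cells. That class also held PLXNA1 (561 and 189.0 CPM) and PLXNA2 (270.1 and 456 CPM). Of these AC/HC/RGC-like cells, 36.3% in the OTX2CRISPR and 3.01% in the CTRL library were in S or G2/M phase. In restricted RPC-like cells PLXNA1 was at 318 and 185 CPM, PLXNA2 at 226 and 253 CPM and ROBO2 at 131 and 155 CPM.

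**Figure D3:**
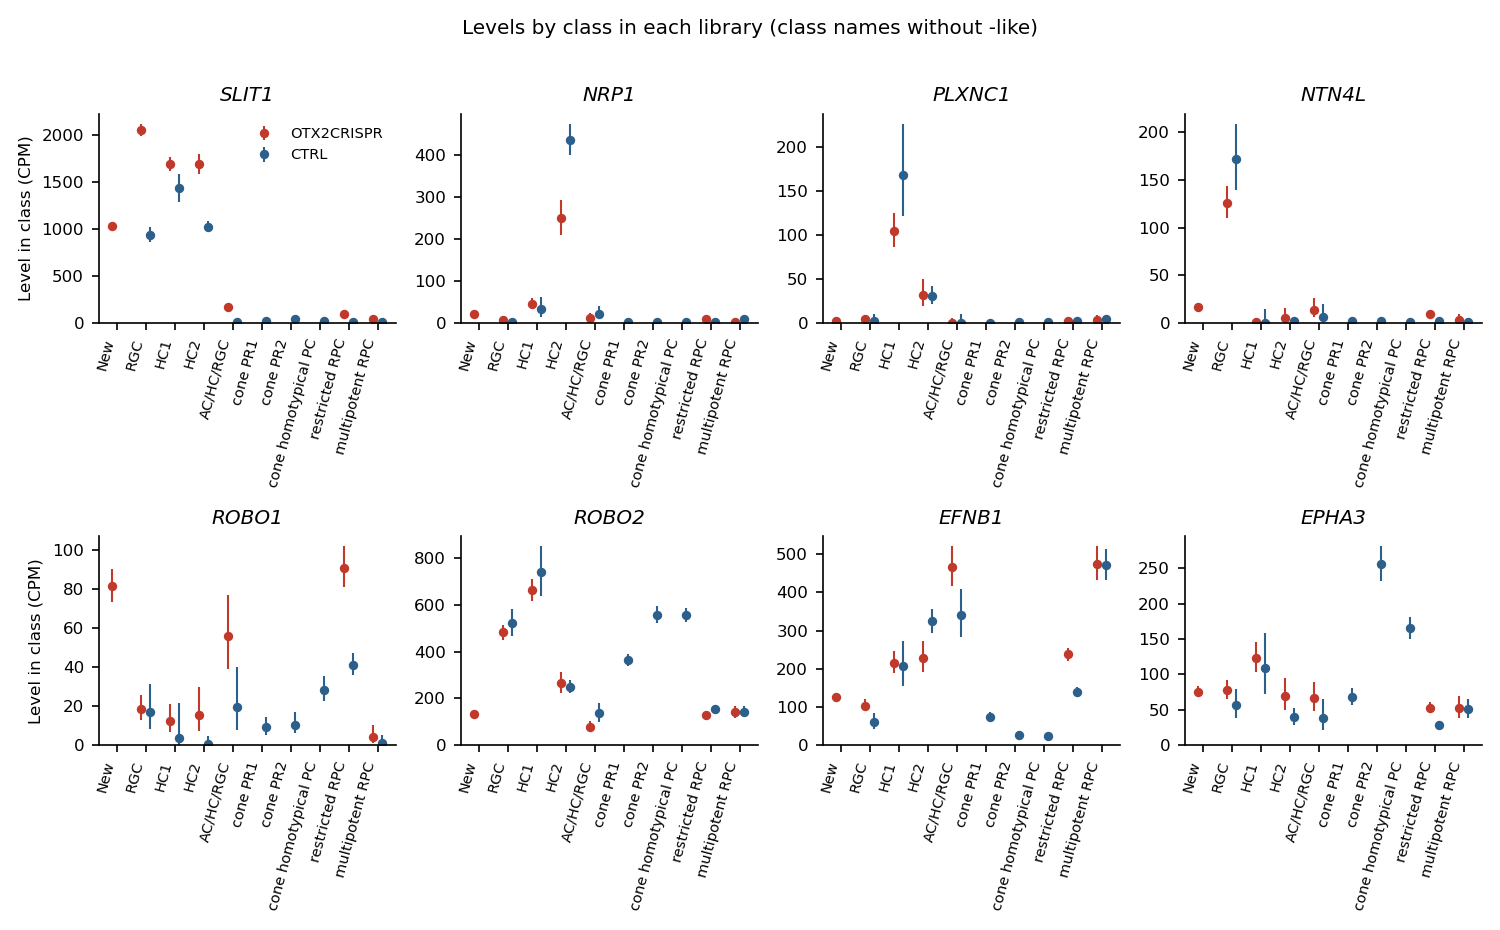
Level in CPM of 8 guidance genes in each class with at least 50 cells, in OTX2CRISPR (red) and CTRL (blue) cells, with 95% counting intervals; each panel starts at 0 and has its own scale. NRP1 peaks in HC2-like, PLXNC1 in HC1-like and NTN4L in RGC-like cells of both libraries, EPHA3 in cone PR2-like cells of the CTRL library, and ROBO1 in New-like and restricted RPC-like cells.

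New-like cells, of which the CTRL library had only 30, were compared with the other classes of the OTX2CRISPR library. Their leading guidance genes were SLIT1 at 1032 CPM (1003 to 1062), PLXNA1 at 472 CPM and NEO1 at 415 CPM. In thinned cells SLIT1 was found in 38.4% of New-like cells (52.5% unthinned, median depth 2445 UMIs), 64.8% of RGC-like cells (81.1% unthinned), and 2.06% of multipotent RPC-like cells (10.2% unthinned, median depth 3082 UMIs). Against RGC-like cells, 4 of 30 measured members (at least 50 UMIs over both classes) were at least 2-fold higher in New-like cells and 8 at least 2-fold lower, while 10.4% of all genes were at least 2-fold apart; the median log2 ratio was -0.18 over members and -0.01 over all genes.

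The receptors ROBO1 and EPHA4 and the secreted semaphorin pathway genes NRP1 and SEMA3F were higher in New-like than in RGC-like cells. ROBO1 was at 81.8 CPM (73.7 to 90.4) in New-like and 18.5 CPM (12.7 to 26.0) in RGC-like cells, a log2 ratio of 2.14 (1.63 to 2.70). NRP1 was at 21.0 and 5.6 CPM (1.91, 0.97 to 3.01), EPHA4 at 61.2 and 25.2 CPM (1.28, 0.82 to 1.77) and SEMA3F at 19.1 and 8.97 CPM (1.09). UNC5D, NTN4L and NTNG1 had the lowest ratios. For NTN4L and NTNG1 the New-like class was the next highest after RGC-like cells, so their ratios restate the order of classes above. UNC5D was at 3.69 CPM in New-like and 49.9 CPM in RGC-like cells (-3.76, -4.60 to -3.0), NTN4L at 16.9 and 126 CPM (-2.90) and NTNG1 at 17.6 and 74.5 CPM (-2.09). ROBO2 (-1.84), EPHB3 (-1.71), EPHB1 (-1.36), NRP2 (-1.23) and PLXNA1 (-1.20) were also at least 2-fold lower, and SLIT1 was just inside that limit (-0.99, -1.06 to -0.93). ROBO1 and ROBO2, receptors for the same ligands, thus differed in opposite directions between these classes, with ROBO2 at 135 CPM in New-like and 483 CPM in RGC-like cells.

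**Figure D4:**
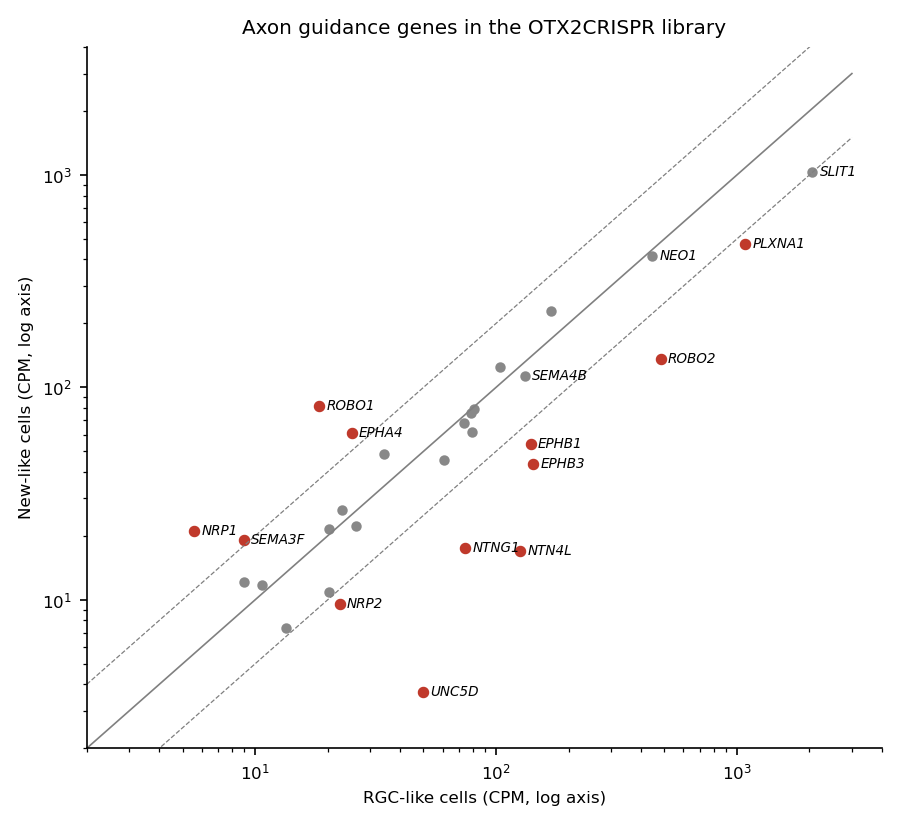
Level of the 30 measured guidance genes in New-like (vertical axis) and RGC-like cells (horizontal axis) of the OTX2CRISPR library, in CPM on log axes. The solid line marks equal levels, dashed lines 2-fold, and red points the 12 genes outside them; ROBO1, NRP1, EPHA4 and SEMA3F lie above and UNC5D, NTN4L and NTNG1 furthest below.

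New-like cells were also set against progenitors of their own library. Against restricted RPC-like cells, 11 of 29 members were at least 2-fold higher in New-like cells and 1 lower, with 22.6% of all genes that far apart and median log2 ratios of 0.52 for members and 0.19 for all genes. UNC5A was at 45.5 CPM in New-like and 2.75 CPM in restricted RPC-like cells (4.05, 3.10 to 5.20), SLIT1 at 1032 and 87.4 CPM (3.56) and SEMA6B at 67.7 and 10.1 CPM (2.75). EPHA5 (2.56), NTNG1 (2.52), SEMA4B (2.16), SEMA6A (1.38), EPHB3 (1.36), NRP1 (1.35), SEMA3F (1.21) and SEMA6D (1.15) completed the 11. SEMA5B (48.8 and 141 CPM, -1.53), EFNB1 (-0.93) and EPHA4 (-0.91) had the lowest ratios. ROBO1 did not separate these classes, at 81.8 and 91.0 CPM (-0.16, -0.38 to 0.07).

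Between RGC-like and restricted RPC-like cells of the same library, 14 of 26 members were at least 2-fold higher in RGC-like cells and 4 lower, beside 28.8% of all genes; the median log2 ratio was 1.41 over members and 0.18 over all genes. The 3 comparisons of classes share cells with one another. NTNG1 (74.5 and 3.06 CPM, 4.61), SLIT1 (4.56) and UNC5A (61.1 and 2.75 CPM, 4.47) were highest. ROBO1 (18.5 and 91.0 CPM, -2.30), EPHA4 (-2.19) and SEMA5B (-2.05) were lowest. Of the effectors, 9 of 21 were higher and 2 lower in RGC-like than in restricted RPC-like cells, beside 28.8% of all genes. In New-like against restricted RPC-like cells 7 of 22 were higher and 1 lower, beside 22.6% of all genes. DPYSL3, a collapsin response mediator, had the highest ratio in both (4.0 and 2.65) and DOCK1, a RAC1 activator, the lowest (-4.12, -7.20 to -2.21, from 2 UMIs in RGC-like cells, and -3.03); second to them were DPYSL2 (2.81) and NCK2 (-1.08) for RGC-like cells, and DPYSL4 (1.68) and RAC1 (-0.36) for New-like cells. Of growth cone and adhesion genes, 8 of 10 were higher and 1 lower in RGC-like cells (CNTN2 5.64, GAP43 4.67, NCAM1 0.18, BOC -2.42), and 7 of 9 higher and 1 lower in New-like cells (STMN2 2.95, CNTN2 2.79, NCAM1 0.31, BOC -2.65). Between New-like and RGC-like cells, 10.4% of all genes were at least 2-fold apart. There 1 of 21 effectors was higher and 3 lower in New-like cells. RND1 was at 2.69 (1.06 to 5.01, from 3 UMIs in RGC-like cells), NCK2 at 0.83, SRGAP1 at -1.48 and DPYSL2 at -1.55. None of 9 growth cone and adhesion genes was higher and 4 were lower (NFASC 0.39, NCAM1 0.13, CNTN2 -2.85, ALCAM -3.35).

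The libraries were then compared within classes. In multipotent RPC-like cells none of 15 measured members was at least 2-fold apart (0.918% of all genes were), and the median log2 ratio was 0.01 over members and -0.01 over all genes. SEMA6A (72.0 and 59.0 CPM, 0.29), PLXNA1 (0.25) and SEMA3BL (0.14) were at the top, and EPHB3 (31.9 and 55.4 CPM, -0.80), SEMA4B (-0.44) and EPHA4 (-0.29) at the bottom. SLIT1, with 44 UMIs over both libraries, was under the minimum of 50: it had 41 UMIs in OTX2CRISPR cells (42.2 CPM) and 3 in CTRL cells (2.72 CPM). STMN2 in the same cells was at 42.2 and 26.3 CPM. None of 15 effectors was 2-fold apart (DOCK1 0.70, FYN 0.48, ENAH -0.18, DPYSL4 -0.43), and of 5 growth cone and adhesion genes 1 was lower (STMN2 0.68, BASP1 0.32, CHL1 -0.80, NFASC -1.16).

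**Figure D5:**
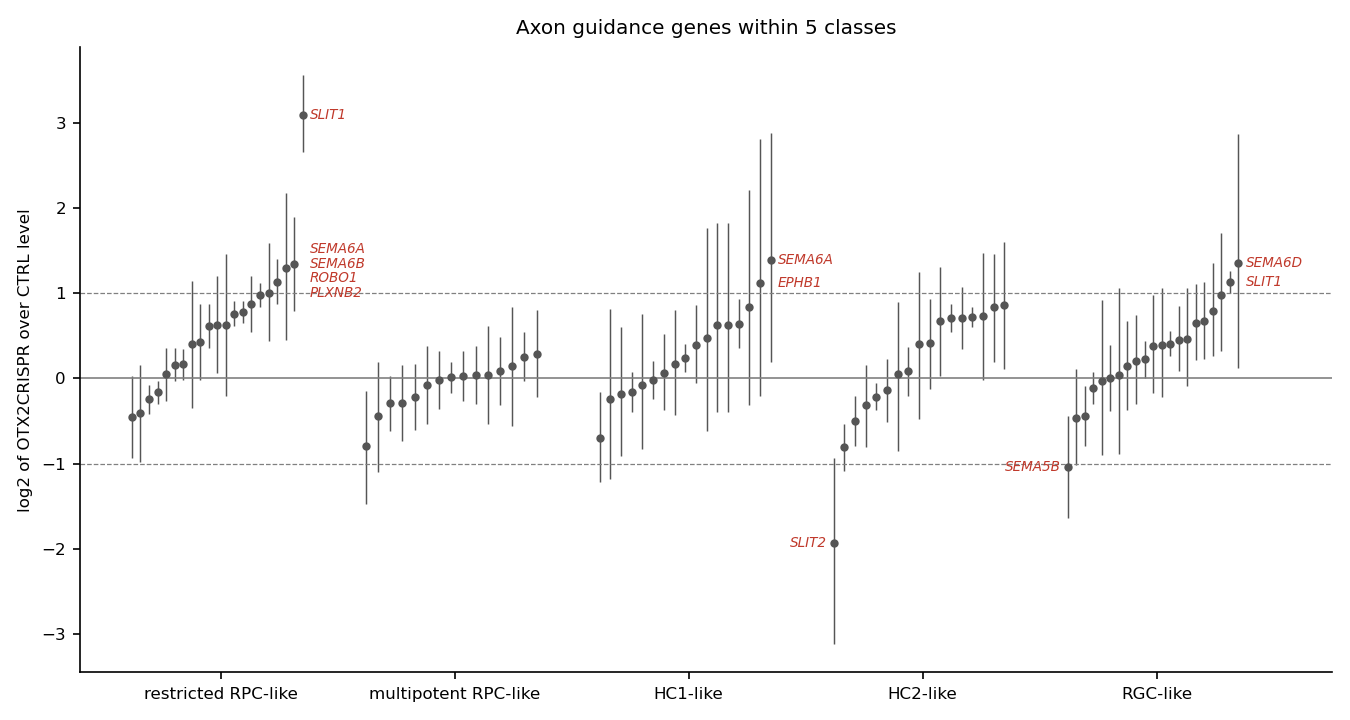
Log2 of the OTX2CRISPR over the CTRL level of each measured guidance gene (points, in order of value) within 5 classes, with 95% counting intervals; dashed lines mark 2-fold and genes at or beyond them are named. SLIT1 at 3.09 in restricted RPC-like cells and SLIT2 at -1.93 in HC2-like cells lie furthest from 0, and no gene in multipotent RPC-like cells reaches 2-fold.

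In restricted RPC-like cells 5 of 21 members were at least 2-fold higher in OTX2CRISPR cells and none was lower, beside 6.06% of all genes, with median log2 ratios of 0.63 and 0.04. SLIT1 was at 87.4 CPM (77.5 to 98.1) in OTX2CRISPR and 10.2 CPM (7.60 to 13.5) in CTRL cells, a log2 ratio of 3.09 (2.65 to 3.56). SEMA6A was at 23.8 and 9.43 CPM (1.34), SEMA6B at 10.1 and 4.10 CPM (1.30), ROBO1 at 91.0 and 41.4 CPM (1.14, 0.87 to 1.40) and PLXNB2 at 18.9 and 9.43 CPM (1.01). NEO1 was close behind at 291 and 148 CPM (0.98). EPHB3 (17.1 and 23.4 CPM, -0.45), UNC5B (-0.41) and ROBO2 (-0.24) were lowest.

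SLIT1 in these progenitors was set beside cones, though no cone-like class was shown to lack it. CTRL levels of SLIT1 were 20.8 CPM (cone PR1-like), 20.3 CPM (cone homotypical PC-like) and 40.2 CPM (cone PR2-like). The CTRL restricted RPC-like level was lower, at 10.2 CPM. In thinned cells it was found in 5.46% (4.23 to 6.92) of OTX2CRISPR and 1.1% of CTRL restricted RPC-like cells (11.8% and 2.60% unthinned, with median depths of 2674.5 and 3144 UMIs). In cone PR1-like cells it was found in 2.78% (0.0703 to 14.5) of 36 OTX2CRISPR and 1.25% (0.628 to 2.23) of CTRL cells (2.78% and 3.5% unthinned, with median depths of 1883.5 and 2105 UMIs). In the OTX2CRISPR library the intervals overlapped, but the cone PR1-like share rested on 1 UMI, too few to serve as a background level. The cone PR2-like and cone homotypical PC-like cells of that library held 2 and 4 SLIT1 UMIs (25.6 and 51.8 CPM). In CTRL cells the restricted RPC-like share was no higher than that of cone PR1-like cells. No background share was thus set for these progenitors or for the 2.06% of OTX2CRISPR multipotent RPC-like cells. The part of free RNA in these levels was not tested.

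Neuronal genes moved with SLIT1 in these progenitors, and their part in the result was not tested. STMN2 was at 157 CPM in OTX2CRISPR and 10.0 CPM in CTRL restricted RPC-like cells (3.97), GAP43 at 27.5 and 4.10 CPM (2.75) and BASP1 at 1231 and 617 CPM. STMN2, GAP43 and the chemokine receptor CXCR4 (1.15) were the 3 of 8 growth cone and adhesion genes that were 2-fold higher, with none lower (NFASC -0.33, BOC -0.48). None of 20 effectors was 2-fold apart (DPYSL3 0.92, SRGAP1 0.55, SRGAP2 -0.40, DOCK1 -0.54), beside 6.06% of all genes. The class also held 2 clusters: cluster 1, with 528 OTX2CRISPR and 1292 CTRL cells, and cluster 3, with 660 and 210. Within each, in a comparison added after seeing the data, SLIT1 was higher in OTX2CRISPR cells: 107 and 11.5 CPM in cluster 1 (3.22, 2.74 to 3.72), and 73.3 CPM and 1 UMI in cluster 3 (5.47, 2.97 to 10.79). ROBO1 was at 78.5 and 42.8 CPM in cluster 1 (0.87, 0.52 to 1.22) and at 100.2 and 31.3 CPM in cluster 3 (1.68, 0.99 to 2.44). SEMA6A was higher in cluster 1 (1.63) and nearly level in cluster 3 (0.07), where EPHA3 was at 58.5 and 8.25 CPM (2.83). EPHB3 was at -0.39 (-1.06 to 0.23) in cluster 1 and 1.21 (-0.30 to 3.18, from 29 and 4 UMIs) in cluster 3. The signs differed, but both intervals include 0, so that no change of direction was shown beyond counting error. The count of members at least 2-fold apart was 2 of 18 in cluster 1 and 3 of 15 in cluster 3, all higher in OTX2CRISPR cells, beside 4.72% and 10.9% of all genes. In cells in S or G2/M phase 5 of 19 were higher and 1 lower, beside 5.69% of all genes. The lower one was EPHB3, at 12.2 CPM in OTX2CRISPR and 25.1 CPM in CTRL cells (-1.04, -1.65 to -0.46), while SLIT1 was at 61.8 and 10.9 CPM (2.50) and STMN2 at 113 and 3.97 CPM.

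In RGC-like cells 2 of 21 members were at least 2-fold higher in the OTX2CRISPR library and 1 lower, beside 3.98% of all genes, with median log2 ratios of 0.38 and -0.04. SLIT1 was at 2057 CPM (1991 to 2125) in OTX2CRISPR and 942 CPM (865 to 1024) in CTRL RGC-like cells, a log2 ratio of 1.13 (1.0 to 1.26). SEMA6D was at 26.3 and 10.3 CPM (1.35, 0.12 to 2.87, from 47 and 6 UMIs), and NTNG1 at 74.5 and 37.8 CPM (0.98). SEMA5B was at 34.2 and 70.5 CPM (-1.04, -1.64 to -0.44), UNC5D at 49.9 and 68.8 CPM (-0.46) and NTN4L at 126 and 172 CPM (-0.45). The pan-neuronal STMN2 (1751 and 1401 CPM) and BASP1 (4476 and 4505 CPM) were less than 2-fold apart in these cells. Of 18 effectors 1 was higher (MICAL3 2.55, 0.93 to 4.88, from 3 CTRL UMIs; PAK1 0.61, VAV2 -0.35, DPYSL4 -0.44), and of 10 growth cone and adhesion genes 1 was lower (RGMB 0.60, STMN2 0.32, CNTN2 -0.55, NRCAM -1.05).

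In HC2-like cells 1 of 17 members was at least 2-fold apart, beside 3.58% of all genes, with medians of 0.40 and 0.02. SLIT2 had 9 UMIs in OTX2CRISPR and 75 in CTRL HC2-like cells (15.7 and 60.1 CPM, -1.93, -3.12 to -0.93). NRP1 was at 248 and 435 CPM (-0.81, -1.09 to -0.54) and EFNB1 at 229 and 324 CPM (-0.50). EPHB1 (52.5 and 28.9 CPM, 0.86), EPHA3 (0.83) and EPHA4 (0.74) had the highest ratios, and SLIT1 was at 1692 and 1026 CPM (0.72, 0.60 to 0.84). Of 17 effectors 2 were higher (DPYSL3 1.52, SRGAP1 1.18, ARHGEF12 -0.22, FYN -0.51), and of 5 growth cone and adhesion genes 1 (GAP43 1.41, STMN2 0.52, NCAM1 0.20, BASP1 0.11). In HC1-like cells 2 of 17 members were at least 2-fold higher, beside 4.76% of all genes, with medians of 0.24 and 0.01. SEMA6A was at 61.5 and 23.5 CPM (1.39, 0.19 to 2.88) and EPHB1 at 42.5 and 19.6 CPM (1.12, -0.21 to 2.81), which rested on 5 CTRL UMIs, and EPHA6 followed (0.83). PLXNC1 (104 and 168 CPM, -0.70), EPHA4 (-0.24) and EPHB2 (-0.19) were lowest, and SLIT1 was at 1695 and 1438 CPM (0.24). In HC1-like cells in G1 phase alone, also compared after seeing the data, none of 12 members was 2-fold apart, beside 6.04% of all genes, and EPHB1 had a ratio of -0.15. None of 14 effectors (MICAL3 0.59, ENAH 0.35, SRGAP3 -0.37, ARHGEF12 -0.58) or 4 growth cone and adhesion genes (STMN2 0.49, NCAM1 0.45, BASP1 0.06, NFASC -0.29) was 2-fold apart in HC1-like cells.

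SLIT1 was higher in the OTX2CRISPR library within 4 of the 5 classes compared (it was under the minimum in multipotent RPC-like cells), by log2 ratios of 0.24 (0.08 to 0.40) in HC1-like, 0.72 (0.60 to 0.84) in HC2-like, 1.13 (1.0 to 1.26) in RGC-like and 3.09 (2.65 to 3.56) in restricted RPC-like cells. The last ratio came from low levels (87.4 and 10.2 CPM) in a class where STMN2 was also higher (157 and 10.0 CPM). The part of free RNA in it was not tested. NEO1 was higher in the restricted RPC-like (0.98), HC2-like (0.71) and RGC-like (0.22) classes with intervals above 0, and at -0.08 (-0.54 to 0.38) in multipotent RPC-like cells. PLXNA1 was higher in the same 3 classes (0.78, 0.71 and 0.41) and in HC1-like cells (0.64, 0.36 to 0.93). The AC/HC/RGC-like class was not among the 5 compared, and its PLXNA1 level, given above, was also higher in OTX2CRISPR cells. In cone PR2-like cells, which were not compared because the OTX2CRISPR library held 40 of them, SLIT1 was at 25.6 CPM (2 UMIs, 3.10 to 92.3) in OTX2CRISPR and 40.2 CPM (31.0 to 51.3) in CTRL cells.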

How the data were processed

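Retinal cells of 1 OTX2CRISPR and 1 CTRL library were profiled by droplet sequencing of RNA 3′ ends. The authors aligned and counted reads with Cell Ranger (3.0.2 per the file headers; GRCg6a per the labels) and deposited UMI counts per gene and barcode, which were used as deposited. Counts of 3′ ends are not per length, so levels of different genes also depend on capture and on annotated ends.

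Cells were kept if they had 200 to 2500 genes, no more than 0.4% of UMIs in 16 mitochondria-related genes and no more than 50% in 80 ribosomal genes. Clustering used Seurat 5.3.0 in R 4.3.3, with cell cycle scores (43 S and 51 G2/M genes) regressed out, 33 principal components, 30 neighbours, resolution 0.6 and 595 of 670 variable genes, without the members and markers. Clusters were named by markers, and differences from the study's classes may come from these rebuilt names. Scrublet in scanpy 1.11.5 called 6 OTX2CRISPR and 7 CTRL cells, too few to have worked, and no cell was removed.

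UMIs were summed per library and class and divided by the total (CPM). With 1 library per group no test was possible. Ratios were read against a 2-fold limit for genes with at least 100 UMIs over the libraries or 50 over 2 classes. Intervals (95%, Poisson for levels and conditional binomial for ratios; scipy 1.17.1, numpy 2.4.6, Python 3.11.15) cover counting error only. For shares of cells with a UMI, cells were thinned to 1000 UMIs. The calculation was tested on simulated data. Members were picked by symbol, with no measured value, but the gene family and the lists were chosen with earlier results of these data known. Values are given in full for the members furthest apart between libraries, the 3 highest in each class, the 3 highest and lowest ratios of each comparison and known retinal guidance genes; other lists get counts and the 2 highest and lowest ratios. Gene names are those of the files, and 61 of 63 members matched a RefSeq table (GRCg7b) used for names only. Alternatives changed the scaling, weighting, minimum, cell filter, doublets and clustering.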

Additional observations from a re-analysis of the deposited data

Results flagged for a closer look

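The difference between the OTX2CRISPR and CTRL libraries lay in opposite directions in different classes for 3 guidance genes, with counting intervals that excluded 0 on both sides. For EFNB1, an ephrin, the log2 ratio was 0.76 in restricted RPC-like and 0.79 in RGC-like cells and -0.50 in HC2-like cells. For its receptor EPHB3 it was -0.80 in multipotent RPC-like and 0.65 in RGC-like cells. For PLXNA2, a plexin, it was -0.16 in restricted RPC-like, -0.21 in HC2-like and 0.46 in RGC-like cells. Within clusters 1 and 3 of the restricted RPC-like cells, PLXNA2 was at -0.01 and -0.02, with intervals that include 0. EFNB1 was at 0.39 and 0.44 in these clusters, with intervals above 0. The share of all genes that met the same rule was not counted, so these 3 genes cannot be read against a background. With 1 library per group, the difference between classes was not tested.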

How the results depend on the processing

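Of 376 log2 ratios of named members recomputed under other settings, 340 stayed within their counting interval, 33 moved further, and 3 that had been at least 2-fold apart changed sign. The comparisons of classes within the OTX2CRISPR library kept their counts within 1.5 times under each alternative run. For the counts under another minimum or clustering, the share over all genes was not counted, so they cannot be read against a background. With a minimum of 20 UMIs the number of members at least 2-fold apart between libraries was 12 of 34 in restricted RPC-like, 1 in multipotent RPC-like, 4 in HC1-like, 4 in HC2-like and 6 in RGC-like cells. Without regressing out cell cycle scores it was 3, 1, 1 and 3 in restricted RPC-like, multipotent RPC-like, HC1-like and HC2-like cells, and SLIT1 in restricted RPC-like cells had a log2 ratio of 2.39. With 20 principal components it was 1 in HC1-like and 4 in HC2-like cells, at resolution 1.0 it was 2 in HC2-like cells, and with members and markers kept among the variable genes it was 1 in multipotent RPC-like cells. At resolution 0.4 the horizontal cell classes merged into an unnamed cluster and gave no value. At resolution 1.0 the New-like class held 1329 OTX2CRISPR cells. An unnamed cluster at that resolution held 486 OTX2CRISPR cells, with 2 of 6 New-like markers raised. Its top genes included HSPB9, HSPA2, CDKN1A, GDF15 and DDIT3. In comparisons chosen after seeing the data, the count was 9 over the libraries without cone-like and New-like cells, where SEMA3A (0.93) and DRAXIN (0.33) changed sign, 2 and 3 in clusters 1 and 3 of restricted RPC-like cells, and 0 in HC1-like cells in G1 phase, where EPHB1 was at -0.15. The cause of these moves was not tested. No paired analysis was possible because each group was 1 library. Members under the minimum, such as NTN1 and PLXNA4, cannot be compared at this depth.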

Other observations

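A small number of cone-like cells remained in the OTX2CRISPR library. They are part of its whole-library levels, and their SLIT1 levels are given above. No ratio between libraries was taken within a cone-like class. In the 40 cone PR2-like cells of the OTX2CRISPR library ROBO2 was at 460.1 CPM (322 to 637), against 557 CPM (522 to 595) in the 677 CTRL cells of that class. EPHA3 was at 217 CPM (127 to 348) in OTX2CRISPR and 256 CPM (232 to 282) in CTRL cone PR2-like cells. NTNG2 had 7 UMIs, 89.5 CPM (36.0 to 184), in the OTX2CRISPR cells and 191 CPM (169.9 to 213) in the CTRL cells. In the 30 OTX2CRISPR cone homotypical PC-like cells DRAXIN had 4 UMIs, 51.8 CPM (14.1 to 133), against 57.1 CPM in CTRL cells. The intervals overlapped in each of these pairs, though only narrowly for NTNG2. Overlap of such intervals does not show that the levels were equal.

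SLIT1 was also at 164 CPM (135 to 198) in OTX2CRISPR and 11.1 CPM (3.03 to 28.5) in CTRL AC/HC/RGC-like cells. STMN2 was at 406 and 142 CPM and GAP43 at 112 and 16.7 CPM in the same cells.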
